A study of Homo sapiens with 3 samples.

Results

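Gene expression after treatment with OA, okadaic acid, was set against that of control cells across the whole transcriptome of the line PANC-1. The comparison used 2 of the 3 samples of the series, 1 array each, and each array came from a single RNA sample. PANC-1 is an established human pancreatic cancer cell line. The control cells carry no treatment in the labels, and the treated cells received 20 µM OA for 24 h. Neither a vehicle for the control nor a repeat culture is named, and all cells were of the same line. The third sample, cells treated with cantharidin, shared the control array. It was used in choosing the probes, which needed a value on all 3 arrays. It was also used in finding each gene's brightest probe and in some of the scaling alternatives. Cy3-labelled total RNA was read on a 1-colour oligonucleotide array, and a gene with several probes is represented by the brightest. Members were all probes that the control or the OA array showed well above background. These were 25714 of the 34041 probes with a value on all 3 arrays and 16166 of the 19699 named genes. With 1 array a side there is no replicate error and no test, so every difference below describes these arrays.

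OA is a polyether toxin made by marine dinoflagellates that blocks the catalytic subunits of protein phosphatase 2A (PP2A) and related serine and threonine phosphatases. PP2A removes phosphate from many kinases and transcription regulators, among them members of the MAP kinase cascades, the kinases that activate NF-κB and the regulators of entry into mitosis. Immediate early genes, inflammatory cytokines, stress genes and cell cycle genes are among the genes that answer these pathways.

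Each array was scaled by its 75th percentile, an intensity of 784 for control and 936 for OA. Intensities below are given on the control array's scale, so that the ratio of a pair is its fold difference, and a gene was counted as higher or lower at 1.5-fold, the study's own limit. A gene that was not well above background on 1 array has only a bound, written as at least N-fold. Such a gene was still counted as higher or lower by its 2 signals. No spot was saturated, and the probes well above background numbered 24768 on the control array against 23071 on the OA array. The lowest signal of that kind was 35 on the control array and 48.6 on the OA array after scaling, so the limit was lower in control cells. All 7 markers of pancreatic ductal epithelium were above background on both arrays. The ductal keratin KRT18 went from 70664 to 161963 and KRT19 from 2503 to 6489, KRT8 was at 51898 and 44426, whereas the ductal transcription factor SOX9 went from 12388 to 3662. The summed signal of acinar markers was 739 in control and 807 under OA, with the lipase PNLIP and the carboxypeptidase CPA1 not well above background on either array. Islet markers summed to 1503 and 1491. The endothelial markers PECAM1, TEK and CLDN5 were not well above background on either array, and that list summed to 2276 and 1353. The leukocyte list, 6 genes with a probe, had 5 above background in control and 6 under OA and summed to 6290 and 20819. The gene above background only under OA was the haemoglobin gene HBB, at 32.2 and 51.1. The list's largest terms were CD14, at 2535 and 9253, and CD68, at 2945 and 10666. The pan-leukocyte gene PTPRC was at 372 and 339 on its brightest probe, its 3 probes running from -0.13 to 2.08 in log2 difference. The part of other cell types in the results was not tested. In RNA from whole cultures, fewer cells of a kind and less RNA per cell cannot be told apart.

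Of the 25714 probes, 6812 (26.5%) were at least 1.5-fold higher under OA, 7123 (27.7%) were at least 1.5-fold lower, and 11779 (45.8%) were neither. By gene, 4545 of 16166 (28.1%) were higher and 4656 (28.8%) were lower, with a median log2 difference of 0.01 and an SD over genes of 1.40. Of the called probes 48.9% were higher, a share that was 62.2% with no scaling between arrays and 42.4% with scaling to the median. At 4-fold there were 1164 genes higher (7.2%) and 1082 lower (6.69%), and by probe the shares were 6.77% and 6.05%. The numbers of genes higher and lower were thus near even at these folds.

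The balance was lost at large folds. Among the 14428 genes measured on both arrays, 285 were higher by 8-fold or more and 196 lower. At 16-fold the counts were 92 and 33, and at 32-fold 28 and 4. Beyond 64-fold there were 10 genes higher and none lower. Part of the scale was out of reach on the low side, since a 32-fold lower signal that is still above background needs a control intensity of 1556 or more, which 4918 genes had. A further 499 genes were well above background only under OA, of which 492 were counted as higher, 481 of them also by their bound, and 149 were at least 4-fold higher by the bound. Another 1239 were above it only in control, of which 739 were counted as lower, 442 of them also by their bound, and 107 were at least 4-fold lower by the bound. The scatter of the intensities shows the long upper arm.

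**Figure D1:**
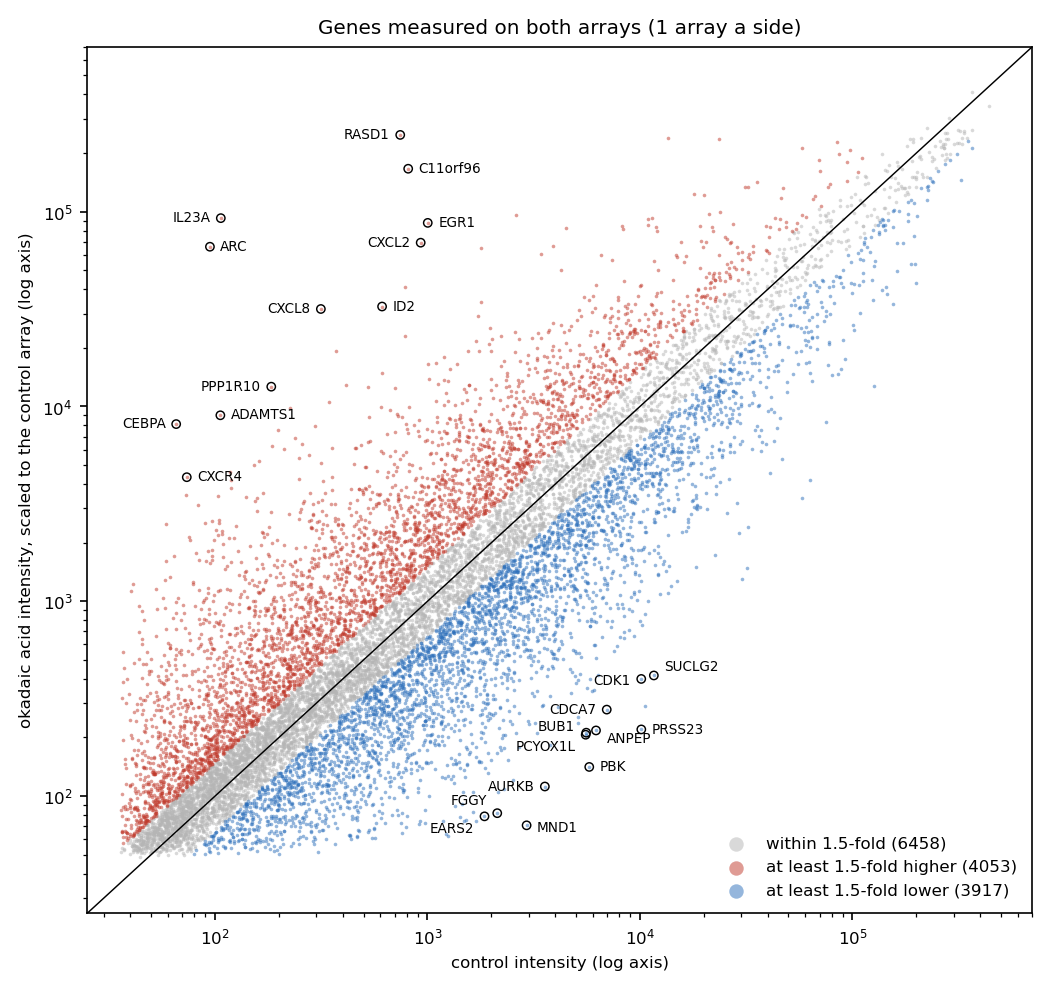
Intensity of each of the 14428 genes measured on both arrays, control on the horizontal axis and OA scaled to the control array on the vertical axis, both logarithmic. Points in red (4053) lie at least 1.5-fold above the diagonal and points in blue (3917) at least 1.5-fold below it. Circled and named are the 12 largest differences each way among genes whose detected probes moved together, and the upper set lies farther from the diagonal than the lower set.

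The genes farthest above control had several unrelated roles. ADAMTS1, a secreted protease that cuts proteoglycans, went from 106 to 9009, 85.03-fold higher. PPP1R10, a nuclear targeting subunit of protein phosphatase 1, went from 184 to 12633, 68.7-fold higher. The chemokine receptor CXCR4 went from 73.6 to 4334, and its 10 spots spanned 68.9 to 79.0 on the control array and 4072 to 4699 on the OA array. ID2, an inhibitor of basic helix-loop-helix transcription factors, went from 611 to 32581, 53.3-fold higher on the brighter of its 2 probes, both higher. Genes seen only under OA included SBSN, which encodes the epidermal protein suprabasin, at 47472 and at least 1356-fold higher, and RRAD, a small GTPase, at 2159 and at least 51.3-fold higher. DIDO1 stood in the same group, at least 41.5-fold higher on its brightest probe, but the log2 differences of its 4 probes ran from -1.36 to 5.38.

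The genes farthest below control mixed cell division genes with enzymes. SUCLG2, a subunit of succinate-CoA ligase in the citric acid cycle, went from 11624 to 416, 27.9-fold lower. ANPEP, the membrane aminopeptidase N, went from 6211 to 217, 28.6-fold lower. EARS2, the mitochondrial glutamyl-tRNA synthetase, went from 1855 to 78.7, and FGGY, a carbohydrate kinase, from 2129 to 81.7. CDCA7, a MYC-responsive gene, went from 6976 to 278, 25.1-fold lower. Genes seen only in control cells included TMEM187, at least 46.4-fold lower, the recombination gene RDM1, at least 32.6-fold lower, and FGD5, a guanine nucleotide exchange factor, at least 26.8-fold lower.

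The spread between spots of the same probe was small beside these differences. A set of 970 probes was printed as 10 spots on each array, and 800 of them were compared. The median SD of log2 signal over spots was 0.059 on the control array and 0.067 on the OA array, and the median SD of a difference between single spots was 0.090. Of 480 such probes called at 1.5-fold, 467 (97.3%) had spot ranges that did not overlap, as had 152 of the 320 probes not called. For the mitotic kinase CDK1 the spots spanned 9849 to 10375 in control and 375 to 478 under OA. For the transcription factor MYC they spanned 84507 to 97174 in control and 14526 to 15989 under OA. This spread covers printing and reading of the arrays and leaves out the spread between cultures.

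The genes that moved differed in length. The median genomic length of the 15145 protein-coding genes compared was 26.7 kb. It was 18.98 kb for the 1066 genes at least 4-fold higher and 35.7 kb for the 1033 genes at least 4-fold lower. At 16-fold the medians were 8.73 kb for 149 genes and 39.1 kb for 60 genes. With the genes split by length into 5 groups of equal number, in the shortest group 9.38% were 4-fold higher or more and 3.86% lower by as much, and in the longest group the shares were 5.45% and 7.59%. Signal strength moved with the direction as well. With genes measured on both arrays split into 5 equal groups by mean signal, the median log2 difference went from 0.23 in the dimmest to -0.11 in the brightest, and the share of genes lower from 11.7% to 33.1%, while the share higher stayed between 25.4% and 30.3%. These groups leave out the 1239 genes above background only in control and the 499 only under OA. The dimmest group began at a mean signal of 43.0, near the background limits. The part of this filter in the trend was not tested. Of 627 long noncoding RNA genes 185 (29.5%) were higher, near the 28.1% of all genes, and 123 (19.6%) were lower, beside 28.8% of all genes. Their median was 0.15, between those of the dimmest group and the next, 0.087, and the part of signal strength in it was not tested.

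Genes were then read by pathway in 58 lists with 1405 entries compared. A list's counts are to be set beside 28.1% higher and 28.8% lower over all genes and its median beside 0.01. The lists with the highest medians held EGR factors, NF-κB regulators, mRNA decay factors, interferon-stimulated genes and MAP kinase phosphatases. The lowest medians belonged to deoxynucleotide synthesis, mitotic entry, metallothioneins and the kinetochore. Some members are named for their role, such as a subunit, a receptor or a familiar target, and these, the single-sided members given by a bound and the members of symbol families were chosen after their values were seen. The strip plot of all lists gives every member.

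**Figure D2:**
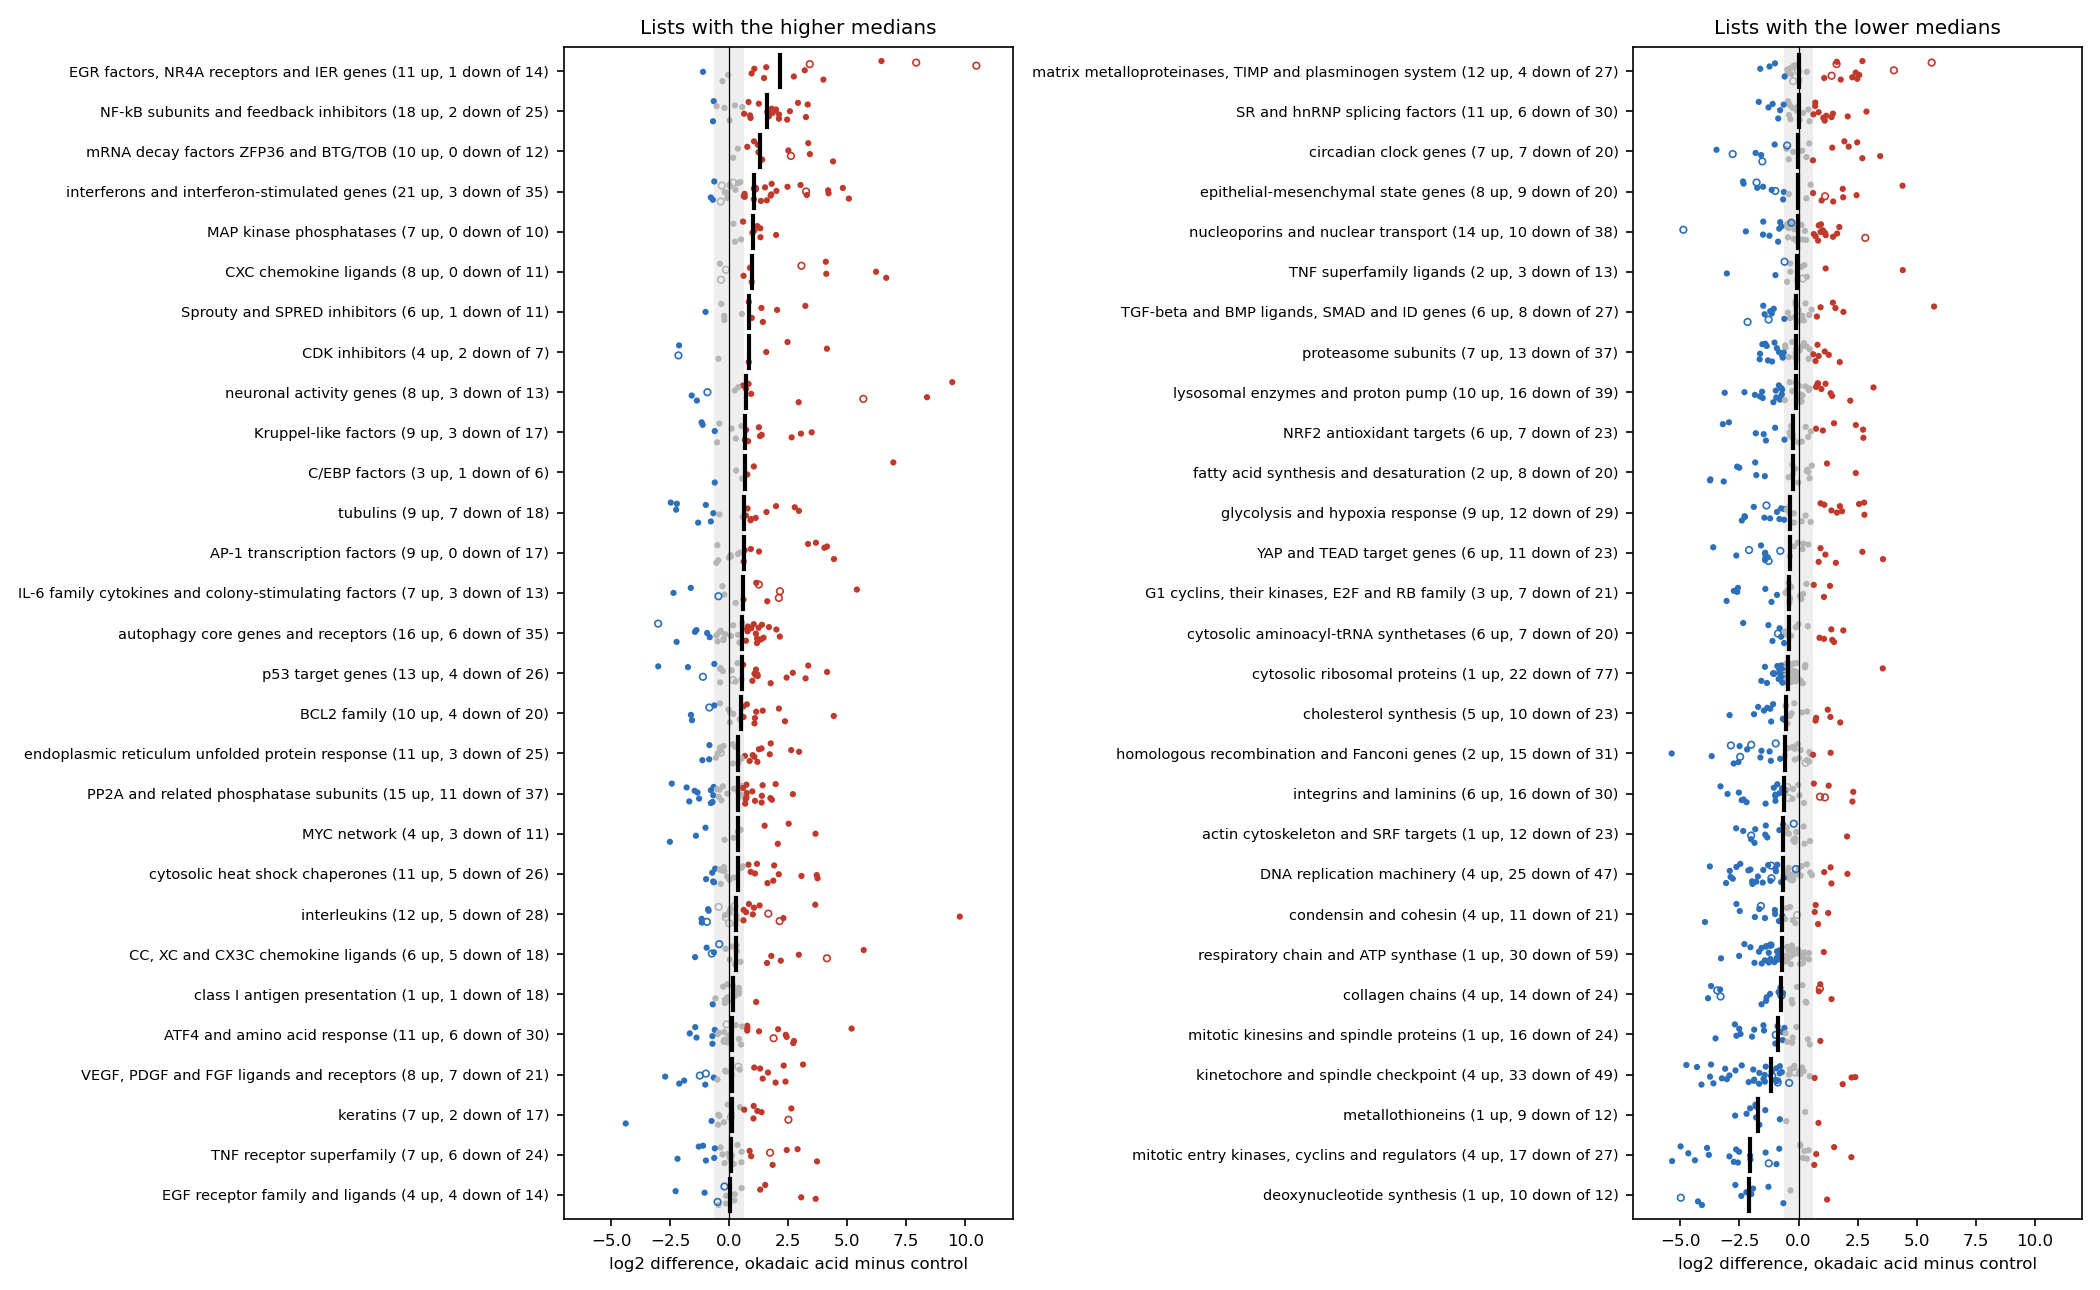
Log2 difference, OA minus control, of every compared member of the 58 gene lists, sorted by the list's median (black bar). Red members are at least 1.5-fold higher, blue at least 1.5-fold lower and grey within 1.5-fold (the shaded band). Open symbols are genes not well above background on 1 array, drawn at their bound where they had one. Without a bound they are drawn at the difference of their 2 signals, which also sets the colour of every member. The medians run from 2.16 for EGR factors, NR4A receptors and IER genes to -2.10 for deoxynucleotide synthesis, and most lists hold members on both sides of zero.

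NF-κB is held in the cytoplasm by IκB proteins until IκB kinases mark these for degradation, and many of its targets are the very proteins that shut it off again. Several genes of this circuit are known to carry a κB site close to their start. The promoter stretches below show it in the 3 neighbouring chemokine genes of chromosome 4, in IL23A, which encodes a subunit of interleukin-23, and in the 2 feedback inhibitors NFKBIA and TNFAIP3. Sequences are from RefSeq promoters on GRCh38.p14, written 5′ to 3′ on the gene's strand, with the κB match in capitals. The stretches lie upstream of the start at chr4:73869294-73869344 (plus strand, CXCL1), chr4:74099243-74099293 (minus, CXCL2), chr4:74038738-74038788 (minus, CXCL3), chr12:56338769-56338818 (plus, IL23A), chr14:35404801-35404850 (minus, NFKBIA) and chr6:137867172-137867233 (plus, TNFAIP3).
CXCL1: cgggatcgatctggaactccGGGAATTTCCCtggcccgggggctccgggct
CXCL2: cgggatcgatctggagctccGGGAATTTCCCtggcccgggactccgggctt
CXCL3: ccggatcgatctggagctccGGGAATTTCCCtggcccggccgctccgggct
IL23A: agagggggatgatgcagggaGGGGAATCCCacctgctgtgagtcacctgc
NFKBIA: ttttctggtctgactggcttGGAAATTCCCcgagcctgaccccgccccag
TNFAIP3: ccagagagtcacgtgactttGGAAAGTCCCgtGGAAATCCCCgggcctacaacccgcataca
The chemokine genes share the same run of capitals, in which 2 matches on opposite strands overlap, and TNFAIP3 holds 2 separate matches. In the window from 250 bases before to 50 after the start, searched on both strands, a κB match was present in 4 of 9 CXC chemokine promoters and 8 of 22 promoters of the NF-κB list, beside 10.2% of the 12212 promoters of compared genes and 8.75% of all 27305 promoters in the table. A match of letters is a description and does not show binding.

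Most of the NF-κB circuit was higher under OA. Of 25 NF-κB subunits and feedback inhibitors compared, 18 were higher and 2 lower (median log2 difference 1.62). CYLD, a deubiquitinase that dampens the pathway, went from 47.6 to 477, 10.03-fold higher. TNFAIP3, the ubiquitin-editing enzyme A20 that ends the signal, went from 804 to 7657, 9.52-fold higher. BIRC3, a ubiquitin ligase at TNF receptors, went from 1348 to 10176, 7.55-fold higher. The nuclear IκB protein NFKBID went from 97.1 to 578 and the adaptor TRAF1 from 163 to 895. NFKBIA, the classical IκB protein, went from 35739 to 141351, and its 8 used spots spanned 34269 to 37348 in control and 130805 to 145664 under OA. Genes of the subunits lay above control, with REL from 72.3 to 313, NFKB1 from 656 to 2293, RELB from 2762 to 8880 and RELA from 1281 to 2367. Against the majority, the nuclear cofactor BCL3 went from 7513 to 4783 and TRAF3, which restrains the alternative pathway, from 109 to 68.1. The kinase subunit genes split: CHUK was 2.39-fold higher, while IKBKB and IKBKG had log2 differences of 0.24 and -0.53, within 1.5-fold.

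Chemokines, which draw leukocytes to a tissue, followed in part. The CXC chemokine ligands list had 8 of 11 higher, none lower and a median log2 difference of 0.96. Besides the neutrophil attractants CXCL1, CXCL2, CXCL3 and CXCL8, CXCL14 was seen only under OA, at 306 and at least 8.35-fold higher. The membrane-bound CXCL16 went from 718 to 1322 and CXCL5 from 363 to 554. Among 18 CC, XC and CX3C chemokine ligands compared, 6 were higher, 5 were lower and the median log2 difference was 0.28. CCL20, which attracts CCR6-bearing lymphocytes, had the largest measured difference and went from 369 to 19168, 51.9-fold higher. CCL3 was seen only under OA, at 617 and at least 17.6-fold higher, and CCL4 went from 55.7 to 253. The eotaxin CCL26 went from 60.9 to 471 and CCL27 from 141 to 486, whereas CCL28 went from 156 to 57.3 and CCL19 from 131 to 67.8. CCL2, a monocyte attractant and a familiar NF-κB target, was at 2967 and 2677, within 1.5-fold.

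Cytokine genes were mixed. With 28 compared, the interleukin list had 12 higher, 5 lower and a median log2 difference of 0.29. IL11, which signals through the receptor chain gp130 as interleukin-6 does, went from 177 to 2211, 12.5-fold higher, and IL32 went from 2690 to 13223, 4.92-fold higher. IL12A, a subunit that pairs in interleukin-12, went from 104 to 254, and IL37 went from 235 to 105 and IL33 from 266 to 119. IL1A was seen only under OA, at least 3.16-fold higher. For IL-6 family cytokines and colony-stimulating factors the counts were 7 higher and 3 lower of 13, and the median log2 difference was 0.61. Among them CTF1, cardiotrophin-1, went from 2067 to 404 and CSF1, the macrophage growth factor, from 3585 to 1162, both lower, while CLCF1 went from 172 to 383. Of 13 TNF ligands 2 were higher and 3 lower, and of 24 TNF receptors 7 were higher and 6 lower, with medians of -0.05 and 0.10 that changed sign under some alternatives. Single members stood out on both sides: TNFSF12, the ligand TWEAK, went from 12790 to 1560, 8.20-fold lower, and TNFRSF1A, the main TNF receptor, from 4475 to 984, 4.55-fold lower. NGFR, the low-affinity neurotrophin receptor, went from 206 to 1533, and RELT from 3261 to 17679, both higher.

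Interferon-stimulated genes, which carry out antiviral defence, were mostly higher. Within interferons and interferon-stimulated genes, 21 of 35 compared were higher and 3 lower, with a median log2 difference of 1.05. OASL, a relative of the oligoadenylate synthetases, went from 103 to 3466, 33.6-fold higher. IFIT2, an antiviral protein, went from 90.04 to 2533, 28.1-fold higher, and both its probes were higher. IRF7, the transcription factor that amplifies interferon production, went from 4463 to 82594, 18.5-fold higher, and the exonuclease ISG20 from 8359 to 81747. Of the interferons themselves, the type III gene IFNL1 went from 158 to 2891, 18.3-fold higher, while the type I gene IFNB1 was at 49.2 and 59.1, within 1.5-fold. BST2, which tethers budding virus, went the other way, from 97.04 to 62.8. OAS2 was lower on its brightest probe, but its 3 probes ran from -0.78 to 1.30 in log2 difference. Genes of class I antigen presentation stayed close to control. Of 18 class I antigen presentation genes compared, 1 was higher and 1 lower (median log2 difference 0.18). TAP1, the peptide transporter, was the member called higher and went from 15256 to 33723. The plot of signal-induced genes sets the intensities of these groups side by side.

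**Figure D3:**
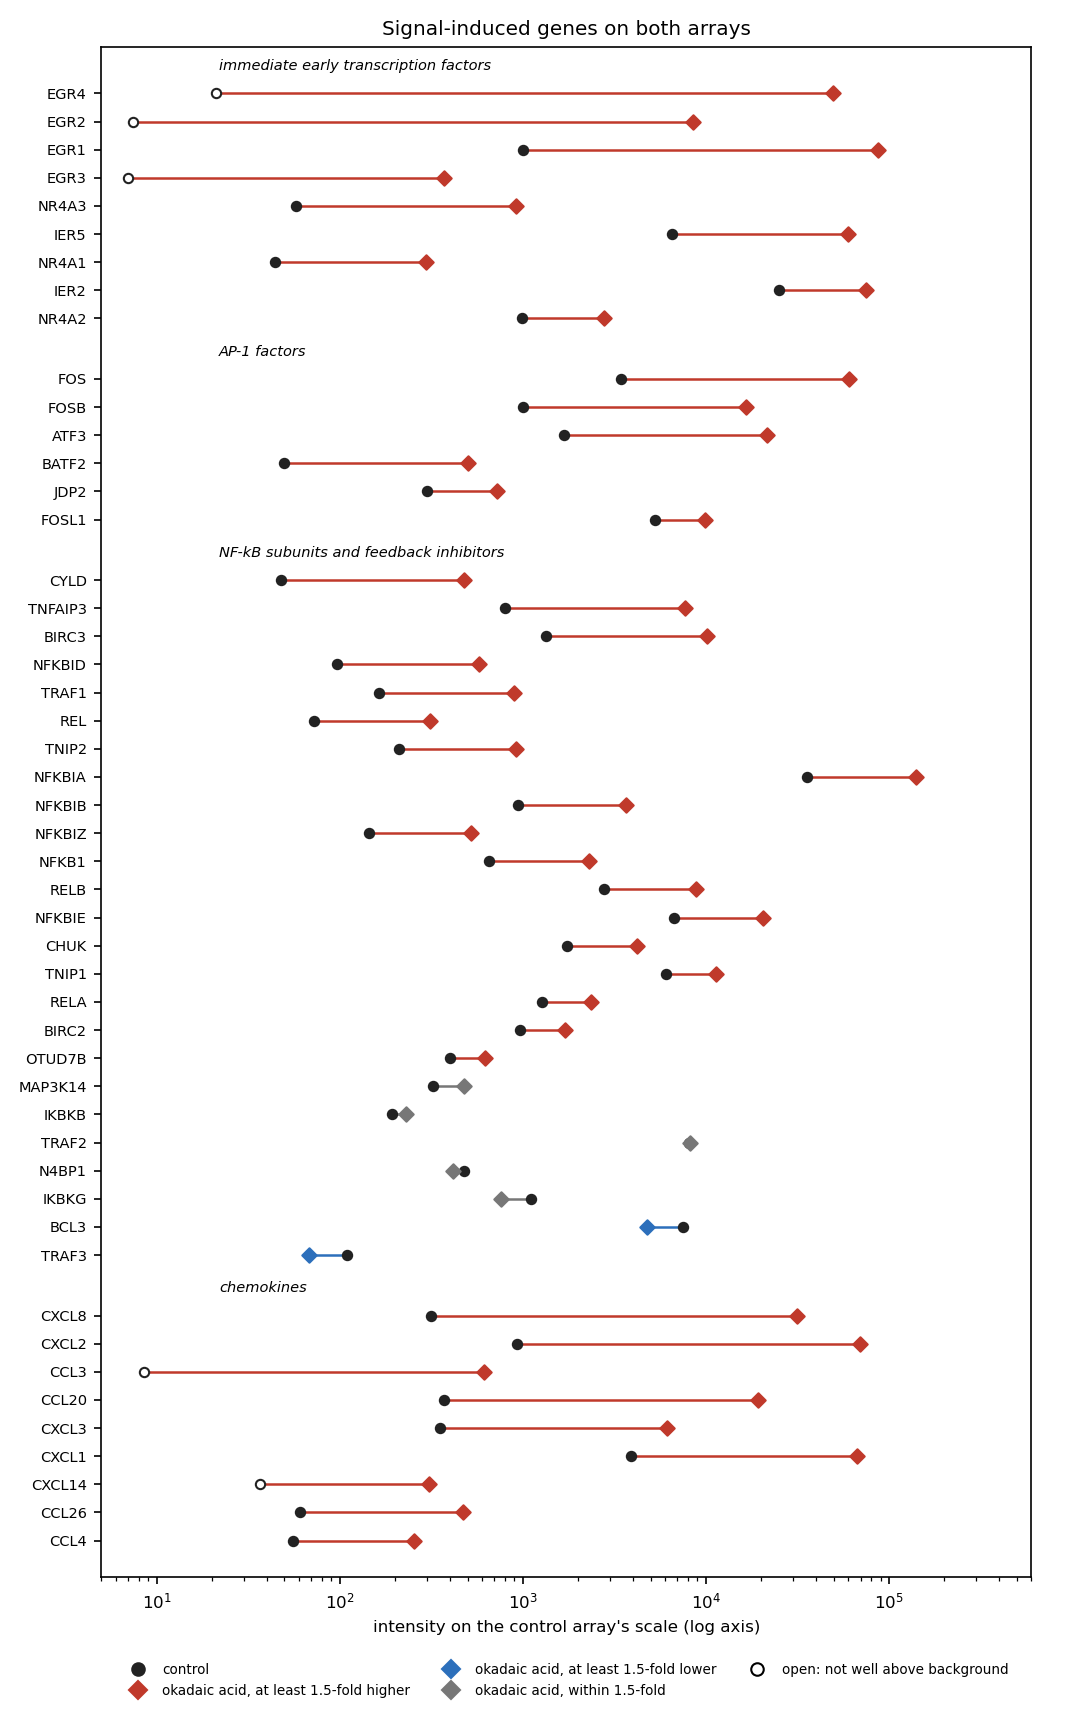
Intensity on the control array (black circles) and under OA (diamonds, scaled to the control array) of immediate early factors, selected AP-1 factors, all NF-κB list members compared and the chemokines with the largest differences, on a logarithmic axis. Red lines mark genes at least 1.5-fold higher under OA, blue at least 1.5-fold lower, grey within 1.5-fold, and open symbols are signals not well above background. In the NF-κB group 18 of 25 lines are red, and BCL3 and TRAF3 are blue.

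Immediate early genes are switched on within minutes of a signal, without new protein synthesis, through serum response factor at CArG boxes among other sites. The promoter of EGR1 carries 2 such boxes within a short stretch upstream of its start (GRCh38.p14, chr5:138465354-138465425, plus strand), shown here with the boxes in capitals because EGR1 was the measured member with the largest difference.
EGR1: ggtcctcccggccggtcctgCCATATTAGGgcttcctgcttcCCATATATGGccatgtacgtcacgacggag
A CArG box was present in 1.19% of the promoters of compared genes and 1.29% of all promoters in the table. The EGR factors, NR4A receptors and IER gene list had 11 of 14 higher, 1 lower and a median log2 difference of 2.16. EGR1 went from 1003 to 87569, 87.3-fold higher. Its relatives EGR2, EGR3 and EGR4 were seen only under OA, at 8473, 373 and 49489, which gave bounds of 242-fold, 10.6-fold and 1414-fold. The orphan nuclear receptor NR4A3 went from 58.1 to 924, 15.9-fold higher, NR4A1 from 44.6 to 298 and NR4A2 from 994 to 2770. IER5, which binds PP2A subunits, went from 6534 to 60060, 9.19-fold higher, and IER2 from 25060 to 74498. Only IER5L was lower, from 4102 to 1907, and its other probe differed by 0.24 on the log2 scale. SRF itself was at 285 and 234, within 1.5-fold.

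AP-1 is typically a pair of a FOS and a JUN family protein, and of these FOS genes were higher while JUN genes stayed within 1.5-fold. Among 17 AP-1 transcription factors compared, 9 were higher, none were lower and the median log2 difference was 0.62. FOS went from 3434 to 60749, 17.7-fold higher, and FOSB from 1009 to 16496, 16.4-fold higher. The JUN genes JUN, JUNB and JUND had log2 differences of 0.44, 0.37 and 0.05, within 1.5-fold. The other FOS genes, FOSL1 and FOSL2, had log2 differences of 0.92 and 0.66. ATF3, a stress-induced repressor, went from 1688 to 21551 on its brightest probe, while its 4 probes ran from -0.47 to 3.67. Activity-dependent genes first described in neurons also went both ways, with more higher than lower. With 13 compared, the neuronal activity gene list had 8 higher, 3 lower and a median log2 difference of 0.72. VGF, a secreted neuropeptide precursor, went from 7348 to 56497, 7.69-fold higher, whereas SIK1, a kinase that CREB switches on, went from 8909 to 3456 and the clock gene PER1 from 18654 to 6223.

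Among other transcription factor families, Kruppel-like factors were higher more often than lower, while circadian genes were divided evenly. For Krüppel-like factors the counts were 9 higher and 3 lower of 17, and the median log2 difference was 0.66. KLF17 went from 451 to 5084 and KLF2, a factor of quiescent endothelium and lymphocytes, from 1486 to 12227, with 10 spots from 1406 to 1554 in control and 11563 to 12582 under OA. The epithelial factor KLF5 went from 397 to 2485, and KLF1, from 2264 to 1011, and KLF11, from 1088 to 501, were lower. Of 6 C/EBP factors 3 were higher and 1 lower. CEBPB, a partner of NF-κB at cytokine genes, went from 23562 to 48666 and CEBPG from 2786 to 4756. In the list of MYC network genes, 4 of 11 compared were higher and 3 lower, with a median log2 difference of 0.37. That median was -0.02 under one alternative. MYC went from 88284 to 15515, 5.69-fold lower, while its antagonist MXD1 went from 524 to 6599, 12.6-fold higher, and their shared partner MAX from 1366 to 7838, all 3 of its probes being higher. MGA, another partner of MAX, went from 209.5 to 593. Of 20 circadian genes 7 were higher and 7 lower, with a median of -0.04 whose sign changed under some alternatives. DBP, an output factor of the clock, went from 4808 to 433, 11.1-fold lower, the repressor NR1D1 went from 5592 to 1587, and the core clock gene PER2 went from 98.4 to 1081 on the brighter of 2 probes that differed by 0.54 and 3.46. BHLHE40, a repressor of clock genes, went from 8752 to 33607 and its relative BHLHE41 from 154 to 859.7.

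Genes that limit signalling were higher in number. Of 10 MAP kinase phosphatases compared, 7 were higher and none lower (median log2 difference 1.03). DUSP6, which acts on ERK, went from 3533 to 14017, 3.97-fold higher, DUSP4 from 2001 to 4212 and DUSP5 from 9546 to 18921. DUSP16 went from 115 to 264 and DUSP7 from 42.1 to 106, whereas DUSP8, DUSP9 and DUSP10 were within 1.5-fold. A dimmer DUSP8 probe was lower, at a log2 difference of -1.65. DUSP1 lay at the limit, with a log2 difference of 0.59 and spots from 99372 to 115624 in control and 139647 to 183154 under OA. The Sprouty, SPRED and SOCS inhibitors list had 6 of 11 higher, 1 lower and a median log2 difference of 0.83. The cytokine signalling inhibitor SOCS1 went from 862 to 8066, 9.36-fold higher, and SOCS3 from 4090 to 16699, 4.08-fold higher. The ERK inhibitors SPRY4 went from 1915 to 5155 and SPRY2 from 6424 to 12499, and SPRED1 was lower, from 556 to 278. A further brake on signalling is known in proteins that destroy short-lived messages. Among 12 mRNA decay factors ZFP36 and BTG/TOB compared, 10 were higher, none were lower and the median log2 difference was 1.32. ZFP36L2, which binds AU-rich elements, went from 154 to 3259, 21.1-fold higher, and its 10 spots spanned 141 to 173 in control and 3109 to 3462 under OA. The endonuclease ZC3H12A, known as regnase-1, went from 1950 to 20839, 10.7-fold higher, and BTG2 from 793 to 8089, 10.2-fold higher. ZFP36 itself, tristetraprolin, was at 364866 and 410789, within 1.5-fold.

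Cell division genes form the counterpart on the low side. Genes that peak in G2 and mitosis are bound by the DREAM complex and by B-MYB with FOXM1 at the CHR element, TTTGAA, often a short distance from a CCAAT box, while genes of DNA replication carry E2F sites, TTTCGCGC or TTTGGCGC. The stretches below show both kinds in genes that were lower under OA: CDK1 and PLK1 with CHR and CCAAT in capitals, the kinesin KIF23 and the spindle protein DLGAP5 with CHR in capitals, and the helicase subunit MCM6 with E2F sites in capitals. They lie upstream of the start on GRCh38.p14 at chr10:60778150-60778205 (plus, CDK1), chr16:23678796-23678885 (plus, PLK1), chr15:69414274-69414319 (plus, KIF23), chr14:55191669-55191743 (minus, DLGAP5) and chr2:135876502-135876615 (minus, MCM6).
CDK1: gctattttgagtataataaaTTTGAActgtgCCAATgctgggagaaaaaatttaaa
PLK1: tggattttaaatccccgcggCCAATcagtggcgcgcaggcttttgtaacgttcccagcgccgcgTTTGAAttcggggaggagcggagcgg
KIF23: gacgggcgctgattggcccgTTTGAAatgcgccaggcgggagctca
DLGAP5: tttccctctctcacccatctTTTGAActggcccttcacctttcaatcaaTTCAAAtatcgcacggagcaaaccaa
MCM6: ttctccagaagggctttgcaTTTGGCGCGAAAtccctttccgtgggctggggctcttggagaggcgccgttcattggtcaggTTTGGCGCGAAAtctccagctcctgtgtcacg
MCM6 holds 2 blocks, in each of which matches on opposite strands overlap. TTTGAA or its reverse complement stood in 17 of 23 promoters of mitotic kinesins and spindle proteins and 20 of 40 of the kinetochore list, beside 10.8% of the promoters of compared genes and 15.4% of all promoters. In the DNA replication list it stood in 1 of 41, and an E2F site in 11 of 41, beside 1.85% and 1.18%. CCAAT, which is common, stood in 18 of 23, 26 of 40 and 23 of 41, beside 36.4% and 35.7%.

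Genes of entry into mitosis were mostly lower. With 27 compared, the mitotic entry kinases, cyclins and regulators list had 4 higher, 17 lower and a median log2 difference of -2.04. At 4-fold, 14 members were lower and 1 was higher, beside 6.69% and 7.2% of all genes. NEK2, a centrosome kinase, went from 2521 to 121, 20.9-fold lower on the brighter of 2 probes that were both lower. CCNA2, the cyclin of S phase and early mitosis, went from 1929 to 132, 14.7-fold lower, and FOXM1, the transcription factor of this gene set, from 1463 to 105, 13.9-fold lower. PLK1 went from 2247 to 379.8 and CCNB2 from 17451 to 2797, while the other B-type cyclin, CCNB1, went from 24019 to 13656 with spots from 23445 to 24780 in control and 12952 to 15548 under OA. AURKA was at 2324 and 2440, within 1.5-fold, beside AURKB at 3567 and 112. The genes that went against the rest were LIN54, the DNA-binding subunit of DREAM that reads the CHR element, from 109 to 514, BORA, an activator of Aurora A, from 712 to 2023, and the inhibitory kinase WEE1, from 3838 to 6093. ENSA, which inhibits PP2A in mitosis once phosphorylated, was higher on 1 probe and lower on the other, at log2 differences of 0.75 and -1.14. The sister inhibitor ARPP19 and the kinase MASTL, which phosphorylates both, had log2 differences of 0.07 and 0.36, though a dimmer ARPP19 probe was at -1.02.

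The machinery that attaches and moves chromosomes followed. For kinetochore and spindle checkpoint genes the counts were 4 higher and 33 lower of 49, and the median log2 difference was -1.18. BUB1, a checkpoint kinase, went from 5553 to 207, 26.9-fold lower. CENPA, the histone that marks the centromere, went from 1638 to 83.2, 19.7-fold lower, and ZWINT from 5940 to 344, 17.2-fold lower. MAD2L1, the checkpoint protein MAD2, went from 10189 to 759. BIRC5, the survivin subunit of the chromosomal passenger complex, went from 29370 to 2253, with spots from 27905 to 30813 in control and 2157 to 2404 under OA. The NDC80 complex subunits SPC25, NDC80 and NUF2 were 12.2-fold, 9.48-fold and 8.19-fold lower. Against the majority, MIS12, of the neighbouring kinetochore complex, went from 237 to 1256, 5.29-fold higher, and the centromere licensing factor MIS18A from 4478 to 21248, 4.75-fold higher. ZW10, of the complex that brings dynein to kinetochores, went from 416 to 1521. Within mitotic kinesins and spindle proteins, 1 of 24 compared was higher and 16 lower, with a median log2 difference of -0.85. KIF2C, which takes microtubules apart at centromeres, went from 12393 to 1085, 11.4-fold lower, KIF22 from 10990 to 1778 and KIF20A from 4087 to 744. ANLN, the scaffold of the cleavage furrow, went from 2029 to 313, and DLGAP5 went from 1899 to 333 and KIF23 from 3342 to 854. The member higher was KIF5B, a transport kinesin of interphase cells, from 2591 to 4916. Of 21 condensin and cohesin genes compared, 4 were higher and 11 lower (median log2 difference -0.69). TOP2A, the topoisomerase that untangles sister chromatids, went from 1630 to 105, 15.6-fold lower, and its relative TOP2B was at 1520 and 1383, within 1.5-fold. CDCA5, the protein sororin that protects cohesion, went from 26308 to 4250, and the condensin subunits NCAPG2 from 512 to 91.3 and NCAPD2 from 18711 to 5912. The cohesin loader NIPBL was higher, from 181 to 432.

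Replication genes were lower more often than higher. The DNA replication machinery gene list had 4 of 47 higher, 25 lower and a median log2 difference of -0.67. GINS1, of the replicative helicase, went from 7507 to 556, 13.5-fold lower. TIMELESS, which steadies the fork, went from 9394 to 1121, 8.38-fold lower, whereas its binding partner TIPIN went from 711 to 1866, 2.63-fold higher. The MCM helicase subunits differed in size of change: MCM5 was 7.51-fold lower, MCM4 4.36-fold and MCM2 4.10-fold, while MCM6 was 1.94-fold lower and MCM7 had a log2 difference of -0.47. POLD2 went from 1418 to 193, PRIM1 from 758 to 110.0 and GINS2 from 1252 to 202. ORC4, a subunit of the origin recognition complex, was 4.20-fold higher, from 1558 to 6546, and the sliding clamp PCNA was at 16393 and 24321, within 1.5-fold. Genes that make the building blocks of DNA were lower with few exceptions. Among 12 deoxynucleotide synthesis genes compared, 1 was higher, 10 were lower and the median log2 difference was -2.10. TYMS, which makes thymidylate, went from 57671 to 3391, 17.01-fold lower. SHMT1, which supplies one-carbon units, went from 1222 to 63.97, 19.1-fold lower. RRM2, the S phase subunit of ribonucleotide reductase, was at 1539 in control and not well above background under OA, at least 31.6-fold lower. The large subunit RRM1 went from 9071 to 1693, and RRM2B, the p53-induced form of the small subunit, went the other way, from 229 to 529.6. The salvage kinase DCK went from 1902 to 298 and DUT, which removes dUTP, from 34955 to 7578. The plot of cell division genes gives the intensities.

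**Figure D4:**
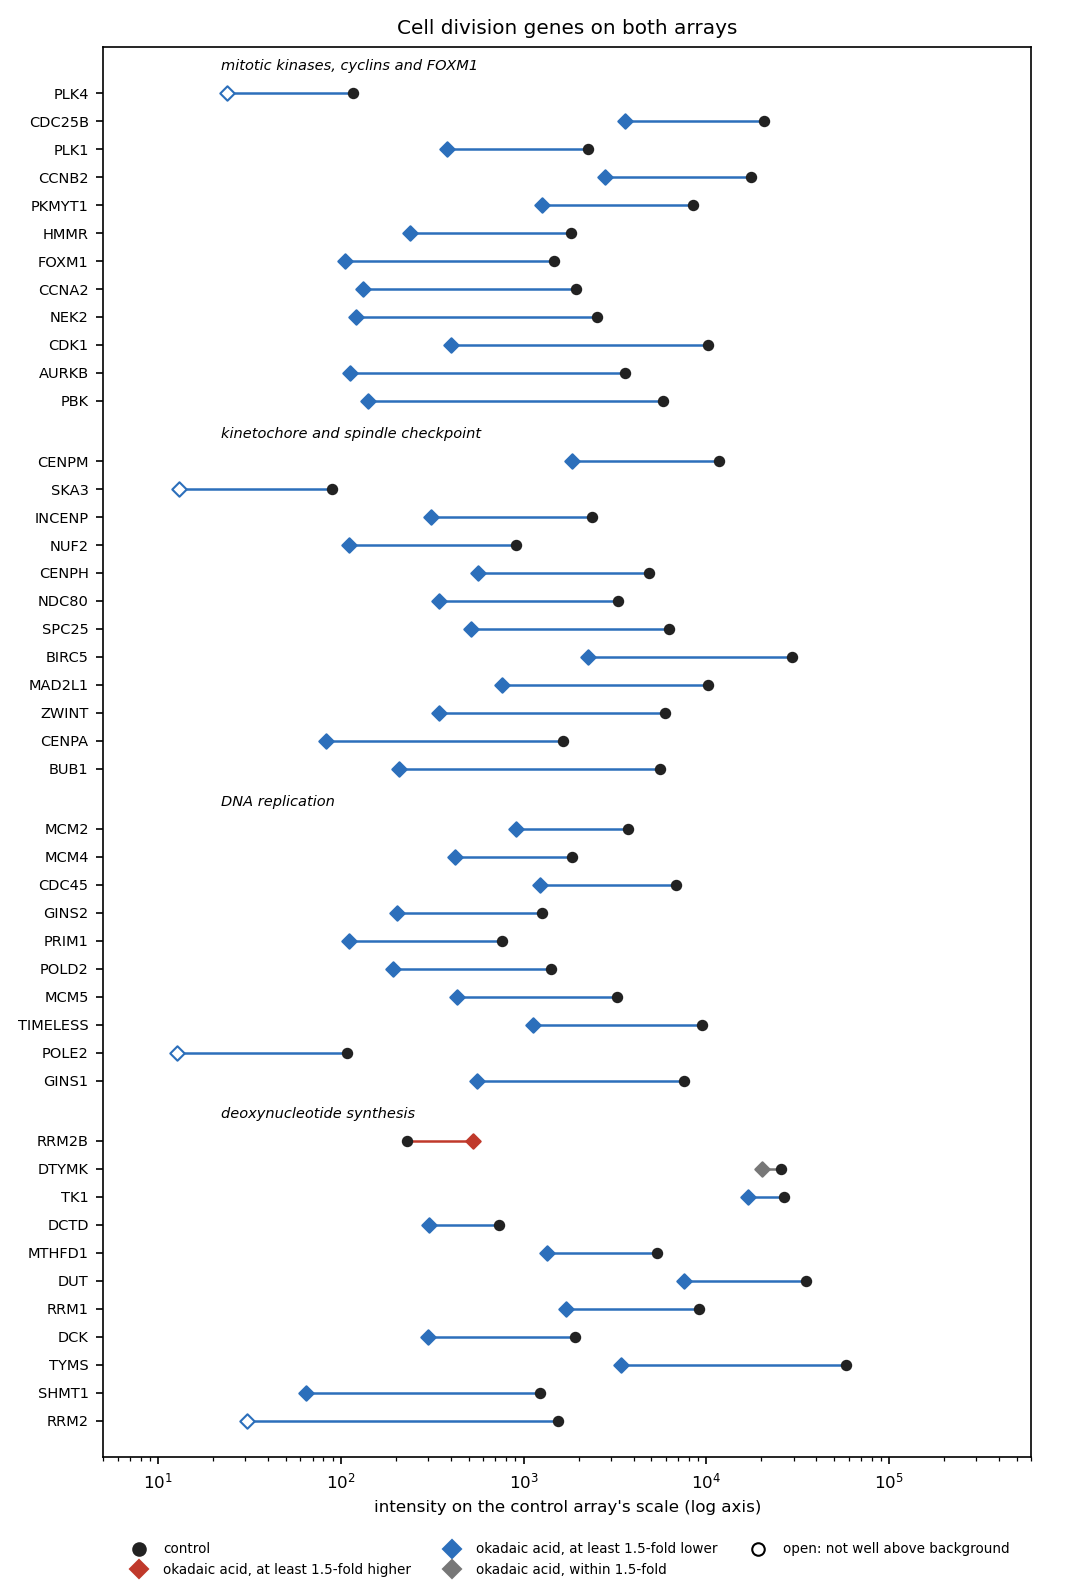
Intensity on the control array (black circles) and under OA (diamonds, scaled to the control array) of the members farthest below control in 3 cell division lists and of deoxynucleotide synthesis genes, on a logarithmic axis. Blue lines mark genes at least 1.5-fold lower under OA, red at least 1.5-fold higher, grey within 1.5-fold, and open symbols are signals not well above background. Within deoxynucleotide synthesis, RRM2B is the red line and DTYMK the grey one.

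Genes of repair by homologous recombination were lower or within 1.5-fold with few exceptions, and CDK inhibitor genes went both ways. With 31 compared, the homologous recombination and Fanconi gene list had 2 higher, 15 lower and a median log2 difference of -0.57. XRCC3, of the recombination machinery, went from 3313 to 494 and the Fanconi ubiquitin-conjugating enzyme UBE2T from 23817 to 4088. FANCM, the translocase of that pathway, was higher, from 145 to 372. For G1 cyclins, their kinases, E2F and RB family genes the counts were 3 higher and 7 lower of 21, and the median log2 difference was -0.39. RBL2, the pocket protein p130, went from 561 to 67.9, 8.26-fold lower, and E2F1, E2F2 and CDK2 were 6.66-fold, 6.05-fold and 5.93-fold lower. CCNE1, the cyclin that drives entry into S phase, was higher, from 2723 to 6853. Of the 7 CDK inhibitors compared, 4 were higher and 2 lower, and their median of 0.83 became -0.07 when genes were taken as the median over their probes. One of the 2 lower was seen only in control, at 45.4. That is under the lowest OA signal above background, 48.6, so it gave no bound. CDKN1C, the inhibitor p57, went from 13556 to 239009, 17.6-fold higher. CDKN1B, the inhibitor p27, went from 5000 to 1151, 4.35-fold lower, and both its probes were lower. CDKN2D went from 15148 to 26950 and CDKN2C was at 3136 and 2296. CDKN2A was 2.97-fold higher on its brightest probe, from 2599 to 7728. Its other probe, at -1.71 on the log2 scale, was at 86.6 in control and not well above background under OA. What the brighter probe detected was not tested.

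Targets of p53 and cell death genes were higher more often than lower, with members on both sides. In the list of p53 target genes, 13 of 26 compared were higher and 4 lower, with a median log2 difference of 0.56. PLK2, a stress-induced polo-like kinase, went from 700.0 to 12389, 17.7-fold higher, PLK3 from 3707 to 24015, and TIGAR, a brake on glycolysis, from 61.1 to 576. SESN2, which restrains mTORC1, went from 488 to 2637. Against them CCNG1 went from 7773 to 971, 8.01-fold lower, and the damage sensor DDB2 from 2284 to 682, each lower on 2 probes. Of 20 BCL2 family genes compared, 10 were higher and 4 lower (median log2 difference 0.52). BIK, a BH3-only killer protein, went from 61.6 to 1328, 21.6-fold higher, and HRK, another, from 204 to 1050. The survival protein BCL2A1, an NF-κB target, went from 6836 to 29475, and the killer BCL2L11, or BIM, from 4089 to 10961 with all 3 probes higher. BID, from 8415 to 2743, and BOK, from 569 to 192, which act on mitochondria, were lower. The main survival genes MCL1 and BCL2L1 had log2 differences of 0.03 and -0.03.

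The stress responses that act through translation and protein folding were higher only in parts. The ATF4 and amino acid response gene list had 11 of 30 higher, 6 lower and a median log2 difference of 0.13. CHAC1, which degrades glutathione and is an ATF4 target, went from 1792 to 65180, 36.4-fold higher, with both probes higher. The cystine transporter SLC7A11 went from 239 to 1605, TRIB3 from 3745 to 24557 and PPP1R15A, the phosphatase cofactor GADD34, from 3272 to 17266. Some enzymes of the same list were lower, with the mitochondrial serine enzyme SHMT2 going from 11858 to 4555, PCK2 from 584 to 184 and CBS from 18781 to 6949. Asparagine synthetase, ASNS, was at 15332 and 18597, within 1.5-fold. Among 20 cytosolic aminoacyl-tRNA synthetases compared, 6 were higher, 7 were lower and the median log2 difference was -0.41. HARS1, which charges histidine tRNA, went from 3996 to 14870 and WARS1, for tryptophan, from 2463 to 6976, while AARS1, for alanine, went from 1042 to 205. With 25 compared, the endoplasmic reticulum unfolded protein response gene list had 11 higher, 3 lower and a median log2 difference of 0.39. EIF2AK3, the stress kinase PERK, went from 111 to 863, 7.79-fold higher, and its inhibitor DNAJC3 from 401 to 2476. ATF6, a sensor of unfolded proteins, went from 3432 to 11642, and the chaperone HSPA5, or BiP, from 4132 to 8671. The disulfide isomerases PDIA6, from 9372 to 4276, and PDIA4, from 7594 to 4234, were lower.

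Chaperone genes went both ways, with more higher than lower. For heat shock chaperones the counts were 11 higher and 5 lower of 26, and the median log2 difference was 0.36. That median came to just below zero under one alternative. The inducible HSPA1B went from 31359 to 134580, HSPA1L from 112 to 1461, HSPA2 from 309.6 to 2586 and HSPH1 from 6672 to 20551. HSPA6 went from 119 to 1597 on its brighter probe, with the other probe at -0.12. The heat-induced DNAJB1, from 21230 to 18210, and HSPB1, from 73050 to 73760 on its brighter probe, were within 1.5-fold, with the other HSPB1 probe at -2.12 on the log2 scale. The constitutive HSPA8, from 22440 to 11409, HSP90AB1, from 46640 to 28382, and the mitochondrial HSPD1, from 59047 to 36962, were lower. Metallothioneins, which bind zinc and copper, were mostly lower. Their list also holds the regulator MTF1 and the zinc exporter SLC30A1. Of its 12 genes compared, 1 was higher and 9 lower, with a median log2 difference of -1.73. MT1M went from 42512 to 6620, 6.42-fold lower, MT1H from 154435 to 33617 and MT1E from 102223 to 24666. MT2A went from 365329 to 211066, and the zinc exporter SLC30A1, which shares their regulator, from 3417 to 1084. The regulator itself, MTF1, was the member higher, from 606 to 1089. The sequences of metallothionein genes are close, and signal shared between their probes was not tested. MT1G, at a log2 difference of 0.28, was within 1.5-fold. Of 23 antioxidant genes under NRF2, 6 were higher and 7 lower, with a median of -0.22 whose sign changed under some alternatives. GCLM, of glutathione synthesis, went from 546 to 3627, while the exporters ABCC3 went from 5006 to 543 and ABCC1 from 11832 to 1534.

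Autophagy genes were higher more often than lower, and lysosomal genes went both ways. Of 35 autophagy core genes and receptors compared, 16 were higher and 6 lower (median log2 difference 0.56). MAP1LC3B, the LC3 protein that coats autophagosomes, went from 19079 to 84360, 4.42-fold higher on the brighter of 2 probes that were both higher. The protease ATG4B that matures it went from 500.2 to 2003 and the lipid transfer protein ATG2A from 2241 to 7215. UVRAG, from 688 to 147, and ATG7, from 2439 to 895, were lower, as was BECN1, from 1084 to 569. ATG5 was called in opposite directions by its 2 probes, at -0.84 and 0.78. The lysosomal enzymes and proton pump gene list had 10 of 39 higher, 16 lower and a median log2 difference of -0.12. That median changed sign under some alternatives. The cathepsins CTSH went from 9886 to 1133, CTSF from 8379 to 1715 and CTSD from 9371 to 3215. The subunit ATP6V1D of the proton pump went from 812 to 7327, 9.02-fold higher, and NEU1, the lysosomal sialidase, from 3279 to 14952.

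The genes of the enzyme that OA blocks were examined next. PP2A is built from a catalytic, a scaffold and an interchangeable regulatory subunit. Among 37 PP2A and related phosphatase subunits compared, 15 were higher, 11 were lower and the median log2 difference was 0.38. The catalytic subunit gene PPP2CA was at 11732 and 17701, 1.51-fold higher, while PPP2CB was at 5118 and 5892, within 1.5-fold. The scaffold genes PPP2R1A and PPP2R1B had log2 differences of -0.52 and -0.41, within 1.5-fold. Regulatory subunits of the B56 family went both ways, with PPP2R5B from 1137 to 7383 and PPP2R5E from 1046 to 2733 against PPP2R5D from 3036 to 1907. LCMT1, which methylates the catalytic subunit, went from 3391 to 9055, and the activator PTPA from 4614 to 1433, 3.22-fold lower. The inhibitor proteins ANP32A, from 9830 to 1827, and SET, from 29915 to 18404, were lower. Catalytic subunit genes of related enzymes went both ways, with PPP6C from 5324 to 8649, PPP4C at a log2 difference of 0.44 and PPP5C from 208 to 86.04.

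Growth factor genes carried large single differences in families with medians near zero. With 14 compared, the EGF receptor family and ligands list had 4 higher, 4 lower and a median log2 difference of 0.05. NRG1, a ligand of ERBB3 and ERBB4, went from 722 to 9145, 12.7-fold higher on the brighter of 2 probes, and HBEGF from 287 to 2376, 8.29-fold higher. AREG went from 3702 to 10678, while the receptor ERBB2 went from 1304 to 271, 4.81-fold lower. For VEGF, PDGF and FGF ligands and receptors the counts were 8 higher and 7 lower of 21, and the median log2 difference was 0.11. FGF1 went from 36.6 to 319.7 and PGF, placental growth factor, from 1410 to 7374, both higher. VEGFB went from 24319 to 5626, PDGFC from 1807 to 483 and the coreceptor NRP1 from 1190 to 182, all lower. In the list of TGF-β and BMP ligands, SMAD and ID genes, 6 of 27 compared were higher and 8 lower, with a median log2 difference of -0.10. In this list ID1 and ID2 parted, ID1 going from 64250 to 22835. SMAD3, which carries the TGF-β signal, went from 15852 to 5855, and its repressor SKIL from 97.1 to 363. The medians of these growth factor lists changed sign under some alternatives. Of 23 YAP and TEAD target genes compared, 6 were higher and 11 lower (median log2 difference -0.37). The receptor kinase AXL went from 10566 to 865, 12.2-fold lower, and IGFBP3 from 2042 to 329, while the kinase NUAK2 went from 1384 to 16488, 11.9-fold higher. The standard YAP targets CCN1 and CCN2 were not lower, CCN1 going from 21354 to 40714 and CCN2 being at 1801 and 2021.

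Genes of the extracellular matrix and its receptors were mostly lower. The collagen chains list had 4 of 24 higher, 14 lower and a median log2 difference of -0.75. COL5A2, of a fibril-forming collagen, went from 9412 to 662, 14.2-fold lower, and COL13A1, a membrane collagen, from 8403 to 646, 13.00-fold lower. COL1A1, at 528 in control, and COL4A5, at 479, were not well above background under OA, at least 10.9-fold and 9.84-fold lower. COL6A1 was higher, from 2702 to 7113. Among 30 integrins and laminins compared, 6 were higher, 16 were lower and the median log2 difference was -0.60. The laminin receptor chains ITGA3 went from 7293 to 738 and ITGB4 from 4085 to 508, 9.88-fold and 8.03-fold lower. The integrin chain ITGB1 went from 6998 to 1214. The laminin chains LAMB1 went from 7380 to 1392, LAMA5 from 1047 to 208 and LAMC1 from 11744 to 2558. LAMB3, a chain of laminin-332, went the other way, from 371 to 1802, as did the collagen receptor ITGA2, from 98.2 to 238.

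The largest differences among genes of matrix breakdown were on the higher side. With 27 compared, the matrix metalloproteinases, TIMP and plasminogen system gene list had 12 higher, 4 lower and a median log2 difference of 0.03. That median changed sign under some alternatives, but 9 of the members were at least 4-fold higher and none lower by as much. The stromelysins MMP3 and MMP10 were seen only under OA, at 574 and 1741, at least 16.4-fold and 49.7-fold higher. The gelatinase MMP9 went from 132 to 707, and PLAUR, the urokinase receptor, from 599.6 to 3559, 5.94-fold higher. F3, the tissue factor that starts clotting, went from 94.7 to 617, and THBD, the thrombomodulin that restrains it, from 1024 to 5734. The inhibitors TIMP1, from 16052 to 55365, and SERPINE2, from 1062 to 5142, were higher too, while TIMP2 was within 1.5-fold. MMP24, from 238 to 77.5, and MMP17, from 4648 to 1984, were lower.

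Genes of the actin cytoskeleton were lower or within 1.5-fold with 1 exception, and tubulin, keratin and epithelial genes went both ways. For actin cytoskeleton and SRF targets the counts were 1 higher and 12 lower of 23, and the median log2 difference was -0.65. ACTN4, an actin crosslinker, went from 37009 to 5925, with spots from 35208 to 39384 in control and 5362 to 6311 under OA. CNN2, TPM1, VCL and CALD1 were 5.07-fold, 4.02-fold, 3.64-fold and 3.56-fold lower, and TAGLN was the member higher, from 284 to 1180 with both probes higher. This list shares its regulator, SRF, with the immediate early genes, and a CArG box stood in 6 of 20 of its promoters. Within tubulins, 9 of 18 compared were higher and 7 lower, with a median log2 difference of 0.64. The tubulins TUBA1A went from 33608 to 6065, TUBB from 64391 to 13590 and TUBA1B from 199759 to 43085, while TUBB2A went from 10953 to 84902, TUBA4A from 716 to 4911 and TUBA3C from 180.4 to 715. Probes of TUBB2A disagreed in size, at 0.84 and 2.95, and signal shared between probes of these similar genes was not tested. Of 17 keratins compared, 7 were higher and 2 lower (median log2 difference 0.11). KRT80 was 20.8-fold lower, from 3792 to 182, and KRT15, a basal keratin, 6.21-fold higher, from 819 to 5087. The epithelial-mesenchymal state gene list had 8 of 20 higher, 9 lower and a median log2 difference of -0.04. The medians of the keratin and epithelial lists changed sign under some alternatives. CLDN3, a tight junction claudin, went from 103 to 2183, 21.2-fold higher, whereas CLDN7 went from 4056 to 1206 and CLDN4 from 39896 to 14085. SNAI1, a repressor of epithelial genes, went from 5049 to 27744, while CDH2, or N-cadherin, went from 5023 to 1001 and the hyaluronan receptor CD44 from 36160 to 7091.

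Metabolic genes were lower more often than higher. Among 23 cholesterol synthesis genes compared, 5 were higher, 10 were lower and the median log2 difference was -0.53. MSMO1 went from 3433 to 454, FDFT1 from 13148 to 4017 and FDPS from 22218 to 8874. HMGCS1, an early enzyme of the pathway, went the other way, from 1658 to 3907, as did STARD4 from 216 to 735. With 20 compared, the fatty acid synthesis and desaturation gene list had 2 higher, 8 lower and a median log2 difference of -0.25. The desaturase SCD went from 7808 to 588, 13.3-fold lower, and FASN, fatty acid synthase, from 30040 to 11174. SREBF1, the master regulator of these enzymes, went from 25632 to 2855 on its brighter probe, and its other probe differed by 0.32. The list's median reached 0.01 under one alternative. For glycolysis and hypoxia response genes the counts were 9 higher and 12 lower of 29, and the median log2 difference was -0.37. The lactate exporter SLC16A3 went from 92660 to 17557, 5.28-fold lower, PFKL from 495 to 102, PFKM from 9049 to 1877 and ENO1 from 62575 to 16849, but PFKFB3, which drives glycolysis through its product, went from 1265 to 8749, and the hypoxia-induced peptide ADM from 17888 to 122830.

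About as many respiratory chain genes were lower as were within 1.5-fold, and most ribosomal protein genes were within 1.5-fold. In the list of respiratory chain and ATP synthase genes, 1 of 59 compared was higher and 30 lower, with a median log2 difference of -0.70. NDUFB5, a subunit of complex I, went from 44351 to 7763 and ATP5F1A, a subunit of ATP synthase, from 37065 to 7565. The only member higher was CYCS, cytochrome c, from 29056 to 60998, with all 3 probes higher. Of 77 cytosolic ribosomal proteins compared, 1 was higher and 22 lower (median log2 difference -0.46). The share lower, 28.6%, was near the 28.8% of all genes, and 54 were within 1.5-fold. RPS3 went from 67767 to 22738 and RPSA from 173837 to 68824, while RPL27A was the exception, from 92.9 to 1101. That control signal was far below the list's median control intensity of 201802, and what the RPL27A probe detected was not tested. The brightest of the 5 groups of genes by signal had a median of -0.11. The proteasome subunits list had 7 of 37 higher, 13 lower and a median log2 difference of -0.12. That median changed sign under some alternatives. PSMD7, a lid subunit, went from 6919 to 2211, and the activator PSME4 from 391 to 1310. Among 30 SR and hnRNP splicing factors compared, 11 were higher, 6 were lower and the median log2 difference was 0.00. SRSF1, a founding SR protein of splicing, went from 104 to 763, 7.33-fold higher, SRSF6 from 2613 to 11067 and SRSF2 from 7100 to 19466, while HNRNPK went from 14323 to 5930 and HNRNPA1 from 44981 to 21012. With 38 compared, the nucleoporins and nuclear transport gene list had 14 higher, 10 lower and a median log2 difference of -0.04. The medians of the splicing and nucleoporin lists changed sign under some alternatives. NUP210 was not well above background under OA and at least 29.3-fold lower, NUP37 went from 2544 to 543, and NUP153, from 1340 to 4433, and NUP58, from 1008 to 3126, were higher.

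Read by symbol, one family stood out by number. Of the 384 zinc-finger genes named ZNF that were compared, 217 (56.5%) were higher and 39 (10.2%) were lower, with a median log2 difference of 0.82, which ranged from 0.47 to 1.07 over the processing alternatives. Many of these genes encode KRAB repressors that silence transposable elements. By brightness, the share higher was 49.4%, 53.6%, 64.9%, 51.1% and 57.9% from the dimmest to the brightest of the 5 groups. A large part of the family lies in clusters on chromosome 19. There 118 of 173 were higher (68.2%) and 10 lower, with a median of 1.21, and elsewhere 99 of 211 (46.9%) and 29, with a median of 0.51. The other 965 protein-coding genes of chromosome 19 had 23.7% higher, 28.3% lower and a median of -0.06. ZNF324 went from 152 to 5034, 33.1-fold higher, ZNF10, a KRAB repressor, from 119 to 3832, 32.1-fold higher, and ZNF256 from 1193 to 17946, 15.04-fold higher. Among the lower ones, ZNF395 went from 1016 to 100.3 and ZNF713 from 5867 to 789. Signal shared between probes of these similar genes was not tested.

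**Figure D5:**
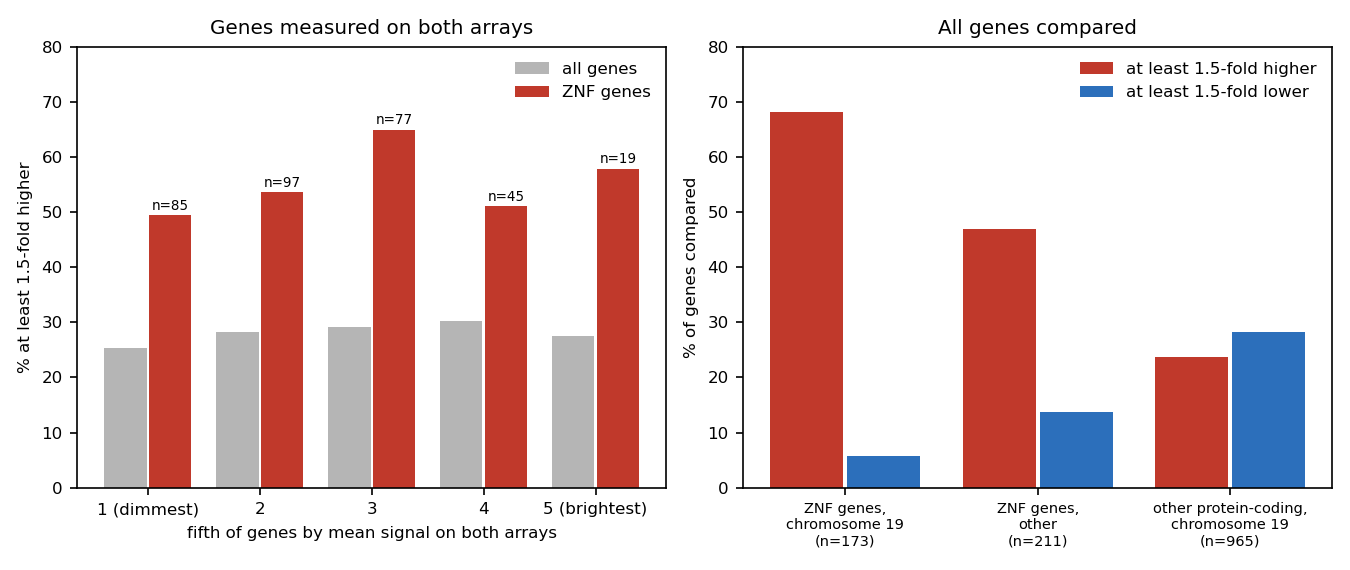
Left, percent of genes at least 1.5-fold higher under OA in each of 5 groups by mean signal, dimmest to brightest, for all genes measured on both arrays (grey) and for ZNF genes (red, n above the bar). Right, percent of compared genes at least 1.5-fold higher (red) and lower (blue) for ZNF genes on chromosome 19, ZNF genes elsewhere and other protein-coding genes of chromosome 19. The red bars of the left panel stand above the grey ones in all 5 groups, and on the right the share higher runs from 68.2% to 46.9% to 23.7%.

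Other families read by symbol were smaller. Of the 14 small nucleolar RNA host genes, whose introns carry snoRNAs, 10 were higher and none lower, with a median of 0.97. SNHG9 went from 5748 to 35373, SNHG12 from 2103 to 12909 and SNHG1 from 7329 to 31943. Among 54 tripartite motif genes, many of them ubiquitin ligases, 25 were higher and 9 lower, with a median of 0.45. Of the 15 S100 calcium-binding genes, 8 were higher and 1 lower, with S100P going from 411 to 12856, 31.3-fold higher. Of the 37 forkhead genes, 15 were higher and 5 lower, FOXQ1 going from 104 to 2614, 25.1-fold higher and FOXM1 lowest. Transmembrane protein genes named TMEM were lower more often, with 36 of 187 higher and 78 lower, and 57 of 309 solute carriers were higher and 104 lower. Other membrane protein families were even, with 13 of 57 GPR receptors higher and 13 lower, 4 of 17 claudins each way, and 16 of 58 potassium channels higher and 18 lower. The median of TMEM genes was -0.34 and that of solute carriers -0.15, and the latter changed sign under some alternatives. The nucleoside transporter SLC29A1 went from 63212 to 4198, 15.1-fold lower. Of the 79 mitochondrial ribosomal proteins, 12 were higher and 30 lower, MRPS27 going from 8879 to 709.8. Among 64 clustered histone genes, 17 were higher and 10 lower, with a median of 0.21. Of the 178 olfactory receptor genes compared, 19 were higher and 25 lower.

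Over the 12212 protein-coding genes with a promoter in the table (80.6% of those compared), a few short motifs differed in share between the genes called each way. TATAAA stood in 8.82% of the 3425 promoters of higher genes (95% Wilson interval 7.91 to 9.81) and 5.16% of the 3624 promoters of lower genes (4.49 to 5.93), beside 7.78% of all compared. Among the 5163 promoters of genes within 1.5-fold the share was 8.93% (8.18 to 9.74), near that of the higher genes. The AP-1 site stood in 4.47% (3.82 to 5.21) against 2.59% (2.12 to 3.16), and the cyclic AMP response element (TGACG followed by TCA) in 3.91% (3.31 to 4.62) against 2.37% (1.93 to 2.92). The intervals overlapped for the κB site, with 10.4% (9.42 to 11.5) and 10.8% (9.85 to 11.9), and for the CHR element, with 9.49% (8.55 to 10.5) and 10.3% (9.32 to 11.3). The intervals treat promoters as separate draws and cover counting error only, and matches of different motifs can overlap. In the promoters of endoplasmic reticulum stress genes, whose response element is known to contain CCAAT, these letters stood in 19 of 23, beside 36.4% of the promoters of compared genes.

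Different probes of a gene were seldom called in opposite directions, though in most genes not all of them were called. Of 3539 genes with at least 2 probes compared, 2764 had a called probe, and in 200 of these (7.24%) probes were called in opposite directions. All probes were higher in 481 genes and lower in 676, and in the rest at least 1 probe was within 1.5-fold or called the other way. Among the members of the lists the disagreeing genes were ATG5, CDKN2A, ENSA, HSP90AA1, LAMA4, LSS, OAS2, PPM1D, SRSF10, TAPBP and VLDLR. The phosphatase PPM1D, which resets the DNA damage response, lay between -1.27 and 1.13 on the log2 scale, HSP90AA1 between -1.97 and 0.91 and VLDLR between -0.71 and 3.51. For such genes the direction given above is that of the brightest probe.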

How the data were processed

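One control and one OA-treated PANC-1 culture were each hybridised to 1 array, on the same slide and in the same scan. Per the file headers, the authors extracted spot intensity values with Feature Extraction 11.0.1.1, which subtracts background within each array, and deposited them with flags for outlier, saturated and background spots. A deposited table of log2 values, whose normalization is not given in the sources used here, served as an alternative. For gene expression, the study's methods describe sequencing, and steps for expression arrays are not given in the sources used here.

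Here control and outlier spots were left out, and spots of a probe were averaged on the log2 scale. Each array's 75th percentile over the probes with a value on all arrays was subtracted. Background followed the deposited flags, with no pseudocount. Genes took the name of the probe's accession in RefSeq, GRCh38.p14. Genes named were the 12 largest differences each way on both arrays, 8 bounds each way, up to 6 members per list with up to 3 against its majority, and genes with opposed probes, beside others noted. A few genes are not reported here by name, though counts include them. Members and lists were chosen with earlier results of these data known. Analyses ran in Python 3.11.15 (pandas 2.3.3, numpy 2.4.6, scipy 1.17.1), normexp correction in limma 3.58.1 under R 4.3.3, and plots in matplotlib 3.10.9. The steps were tested on simulated data. One array a side limits the precision.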

Additional observations from a re-analysis of the deposited data

How the results depend on the processing

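In all, 12 alternatives were tried for the background correction, scaling, filter, threshold and choice of probe. List counts stayed within 1.5 times their first value in 1173 cases and moved farther in 103. Medians of lists and symbol families stayed within 0.0902 on the log2 scale, the median SD between single spots of a probe, in 516 cases and moved farther in 323, and values of the 24 single genes did so in 145 and 95. The median log2 difference over probes of -0.006 was -0.13 with scaling to the median, 0.25 with no scaling and 0.094 with no filter on dim probes. At 2-fold, 4480 probes were higher and 4623 lower. By gene, 4656 were lower with the brightest probe, and with the median over probes 4461 were higher and 4683 lower. The median of CDK inhibitors turned to -0.069 with the median over probes. With 1 array a side, no library could be left out. No paired analysis was possible because each group has 1 sample. Signals near the lowest one above background, 35 in control and 48.6 under OA, set only bounds. All arrays shared a slide and a scan, so neither could be tested as a batch.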
